A study of Homo sapiens with 6 samples.

Results

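Actin filaments give cells their shape and pull and push on their membranes, and the genes described here build, cut, cap, bundle and walk on them. Formins start unbranched filaments and stay on the growing end, while the Arp2/3 complex starts branches on the side of filaments that exist. Profilins deliver actin monomers, cofilins sever and disassemble filaments, capping protein blocks the growing end, tropomyosins coat filaments and set which motors can use them, alpha-actinins crosslink them, and myosins are the motors, regulated by their light chains. In epithelial cells of the lung these proteins serve junctions, secretion, migration and division.

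The set was chosen by gene symbol. It holds the FHOD, DIAPH, DAAM and FMN formins with INF2, the numbered MYO motors and MYL light chains, and the ARPC, CAPZ, CFL, PFN, TPM and ACTN families. Of the 23368 genes in the deposited table, 78 rows matched these symbols, 2 of them were pseudogenes (PFN1P2 and CFL1P1) and were left out, and 76 members in 9 families remained. The families were put together with the fold changes of the comparison below already known. The differences between the groups are therefore given as a description, and no p-value is printed for a member.

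The cells were H2122, a human lung adenocarcinoma line, sampled 48 hours after transfection. A control shRNA was used in 3 libraries, and in the other 3 the shRNA targeted LYCAT. LYCAT is also called LCLAT1 and encodes an acyltransferase that remodels phospholipids. No other treatment is named. Nothing in the labels tells separate cultures from repeat preparations, so the spread between libraries, and every p-value built on it, may be technical. The comparison asked how expression differs between cells with and without the LYCAT shRNA.

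Library totals ranged from 3118946 to 4930079 counts, and 11097 genes were abundant enough to test. LCLAT1, the target, stood at 56.8 to 65.3 CPM (counts per 1000000 counts of the scaled library) in the control libraries and at 18.9 to 23.6 CPM in the LYCAT shRNA libraries, or 35.5% of the control mean. A two-sided exact permutation test gave p = 0.1, and no smaller p can be reached with 3 libraries a group. The 6 epithelial markers summed to 1607 to 1697 CPM in controls and 1432 to 1498 CPM with LYCAT shRNA, with 4 of the 6 lower, while the 15 markers of skeletal and cardiac muscle summed to at most 3.86 CPM in any library and 6 of them, TNNT2 and CKM among these, had no count. The 8 fibroblast markers, of which 3 were abundant enough to test and none was called, differed within the control group. COL1A1 stood at 59.4, 82.7 and 28.3 CPM in control libraries 1, 2 and 3 and at 16.4 to 25.9 CPM with LYCAT shRNA, and the 8 markers together ranged from 30.8 to 130 CPM in controls and from 18.7 to 37.6 CPM with LYCAT shRNA. COL1A2 and COL3A1 followed the same order in the controls, at 14.4, 23.9 and 0.985 CPM and at 10.1, 17.2 and 1.23 CPM, against at most 5.53 and 3.83 CPM with LYCAT shRNA. LUM had 5, 19 and 1 counts in control libraries 1, 2 and 3 and 7, 1 and 7 with LYCAT shRNA, and DCN, PDGFRA, PDGFRB and POSTN had at most 3 counts in any library. Of the 6 smooth muscle markers 2 were tested, and SMTN rose from 12.8 ± 0.906 to 24.97 ± 1.55 CPM (SD, n = 3 each; log2 0.95, edgeR adjusted p = 1.545e-06), while SYNM, the other tested marker, stood at 7.01 ± 0.902 and 5.18 ± 0.436 CPM with groups that do not overlap and was not called (log2 -0.44). CNN1 had 4, 11 and 0 counts in controls and 2, 1 and 1 with LYCAT shRNA, and MYH11, DES and ACTG2 had at most 1 in any library. The 6 together ranged from 19.7 to 22.1 CPM in controls and from 28.5 to 32.0 CPM with LYCAT shRNA. The part of these shifts in the results below was not tested. In bulk RNA, fewer cells of a type and less RNA per cell cannot be told apart.

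Of the 76 members, 48 were tested and 28 were too low. A member is called higher or lower where edgeR's quasi-likelihood test over all 11097 genes gave an adjusted p under 0.05. In these terms 10 members rose and 3 fell with LYCAT shRNA, or 27.1% of the 48, where 19.1% of all tested genes were called, 9.81% of them higher and 9.26% lower. Since the families were proposed from this comparison, nothing is read from that share. Among those that rose were the formins FHOD3, FMNL2 and DIAPH1, the motor MYO5B, the Arp2/3 subunits ARPC4 and ARPC5L, the profilin PFN2, the tropomyosin TPM4 and the alpha-actinin ACTN1. The cofilin CFL2, the formin DAAM1 and the motor MYO5C fell. Apart from FHOD3 the changes were small: the median size among the 13 was 0.28 on the log2 scale, against 0.39 among all called genes, and the median over the 48 was 0.03, against -0.006 over all tested genes. Control and LYCAT shRNA values were fully separate for 21 of the 48 tested members, FHOD3 among them, against 32.8% of all tested genes. Nothing is read from that count either.

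**Figure D1:**
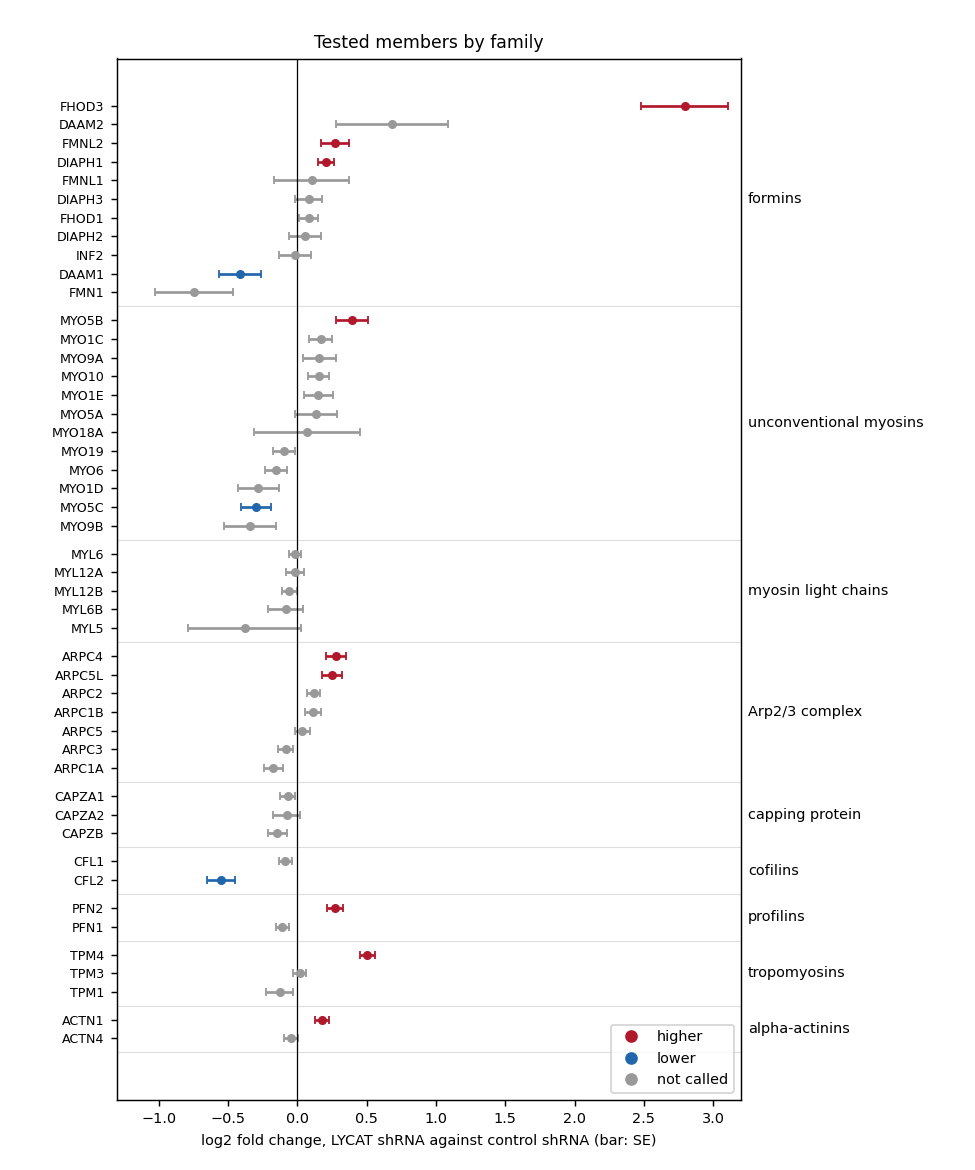
Log2 fold change (LYCAT shRNA against control shRNA, x axis, bars SE) of 47 of the 48 tested members, grouped by family on the y axis, with called members in red (higher) and blue (lower). FHOD3 stands alone at 2.79, and every other member shown lies between -0.75 and 0.69.

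Without control libraries 1 and 2 together, the pair with the most fibroblast marker counts, 5 members rose and 2 fell. That leaves 1 control library, whose variance is taken from the LYCAT shRNA group. Without LYCAT shRNA library 1, 5 rose and 2 fell. Without control library 1, 8 rose and 1 fell, and without LYCAT shRNA library 3, 7 rose and 1 fell. FHOD3, TPM4, CFL2 and ARPC4 were called in all 15 alternative settings, and all 13 kept their direction in all 15. For FHOD3 this is a description only, since it passed the main filter only through its LYCAT shRNA counts.

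The largest change among the tested members was that of a formin, FHOD3. The median over the 11 tested formins was 0.08 on the log2 scale. FHOD3, a formin best known for building sarcomeres in heart muscle, had counts of 5, 10 and 6 in the control libraries and 46, 39 and 45 in the LYCAT shRNA libraries. These correspond to 1.07, 2.03 and 1.48 CPM in controls and 9.78, 12.6 and 10.5 CPM with LYCAT shRNA. Every LYCAT shRNA library stood above every control library. FHOD3 passed the filter for testing only through its LYCAT shRNA counts. TPM2, with more counts in controls (10, 13 and 8) and few with LYCAT shRNA, was not tested. The separation of the FHOD3 groups is therefore given as a description only. The mean rose from 1.53 ± 0.479 to 10.96 ± 1.45 CPM (SD, n = 3 each), a 6.93-fold increase (log2 2.79, SE 0.31), and leaving out any 1 library gave 2.59 to 3.07. With only 5 to 10 control counts the size of the fold is imprecise. The 15 markers of skeletal and cardiac muscle summed to at most 3.86 CPM in any of the same libraries. Of the smooth muscle markers, SMTN had means of 12.8 CPM in controls and 24.97 CPM with LYCAT shRNA. SYNM had means of 7.01 and 5.18 CPM.

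The 250 bases before the annotated start of FHOD3 are shown because this gene carries the largest difference of the set (RefSeq, GRCh38.p14, chr18:36297463-36297712, + strand, 5′ to 3′). They hold neither motif that was searched in the promoters, the CArG box, the name of the site that serum response factor binds, and GGAATG, the core that TEAD factors bind, on either strand.
FHOD3: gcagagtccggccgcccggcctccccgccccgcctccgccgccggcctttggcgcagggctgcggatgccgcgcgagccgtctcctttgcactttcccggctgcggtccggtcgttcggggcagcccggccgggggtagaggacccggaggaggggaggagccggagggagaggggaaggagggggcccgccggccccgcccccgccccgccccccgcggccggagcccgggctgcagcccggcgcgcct

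FHOD1, the closest relative of FHOD3 and a formin of stress fibres, was not called. Its levels were 117, 135 and 130 CPM in controls and 139, 140 and 126 CPM with LYCAT shRNA, with overlapping groups and a log2 fold change of 0.08 (SE 0.07). FHOD3 therefore went from 1.17 ± 0.29% of the FHOD1 and FHOD3 counts together to 7.49 ± 0.857% (SD, n = 3 each, not corrected for length).

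Among the diaphanous formins, named after a fly gene needed for cell division, DIAPH1 rose and its relatives did not pass. DIAPH1 stood at 191, 196 and 183 CPM in controls and at 224, 215 and 219.5 CPM with LYCAT shRNA, groups that do not overlap (1.16-fold, log2 0.21, SE 0.06). It was not called without LYCAT shRNA library 1 (log2 0.19). DIAPH2 and DIAPH3 had log2 fold changes of 0.06 (SE 0.11) and 0.08 (SE 0.09) with overlapping groups.

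The formin-like gene FMNL2, whose product works at lamellipodia and filopodia, stood at 44.6, 45.4 and 53.9 CPM in controls and 58.3, 53.9 and 60.2 CPM with LYCAT shRNA. It rose 1.21-fold (log2 0.27, SE 0.1), and it is the called member whose groups overlap, since control library 3 lies at the level of LYCAT shRNA library 2. The call was lost without control library 1 (log2 0.23) or 2 (0.24), or without LYCAT shRNA library 1 (0.26) or 3 (0.24), and the value was 0.10 without control libraries 1 and 2 together. Over all 15 alternative settings the FMNL2 call was lost in 7. FMNL1 stood at 4.50 to 6.90 CPM in controls and 5.53 to 7.42 CPM with LYCAT shRNA, and FMNL3, with 24 counts over all libraries, was not tested.

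The 2 DAAM formins, which act downstream of Wnt receptors in planar polarity, had values of opposite sign. DAAM1 stood at 21.9, 25.9 and 21.2 CPM in controls and 17.6, 15.5 and 18.4 CPM with LYCAT shRNA, with every LYCAT shRNA library lower (log2 -0.41, SE 0.15). DAAM1 was called with all libraries and without control library 3, and was not without control library 1 (log2 -0.45) or 2 (-0.31) or LYCAT shRNA library 1 (-0.43), 2 (-0.35) or 3 (-0.46). Over all 15 alternative settings, other methods among them, the DAAM1 call was lost in 9. DAAM2 was close to the detection limit, at 9, 12 and 5 counts in controls and 13, 11 and 13 with LYCAT shRNA, and was not called (log2 0.69, SE 0.4).

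FMN1, a formin of adherens junctions, lay just outside the threshold. Its counts were 29, 33 and 31 in controls and 23, 13 and 13 with LYCAT shRNA, and the groups did not overlap (6.22 to 7.63 against 3.04 to 4.89 CPM, log2 -0.75, SE 0.28). FMN1 was called lower with library totals in place of TMM scaling (log2 -0.76) and with a filter of 5 CPM (-0.75). The called member nearest to the threshold from inside was MYO5C, described below. INF2, a formin that also severs filaments, stood at 30.5 to 38.4 CPM in controls and 32.3 to 36.1 CPM with LYCAT shRNA. FMN2 had no count in any library. As a family, formins took 6.64 ± 0.344% of the counts of all 76 members in controls and 7.14 ± 0.139% with LYCAT shRNA (SD, n = 3 each).

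**Figure D2:**
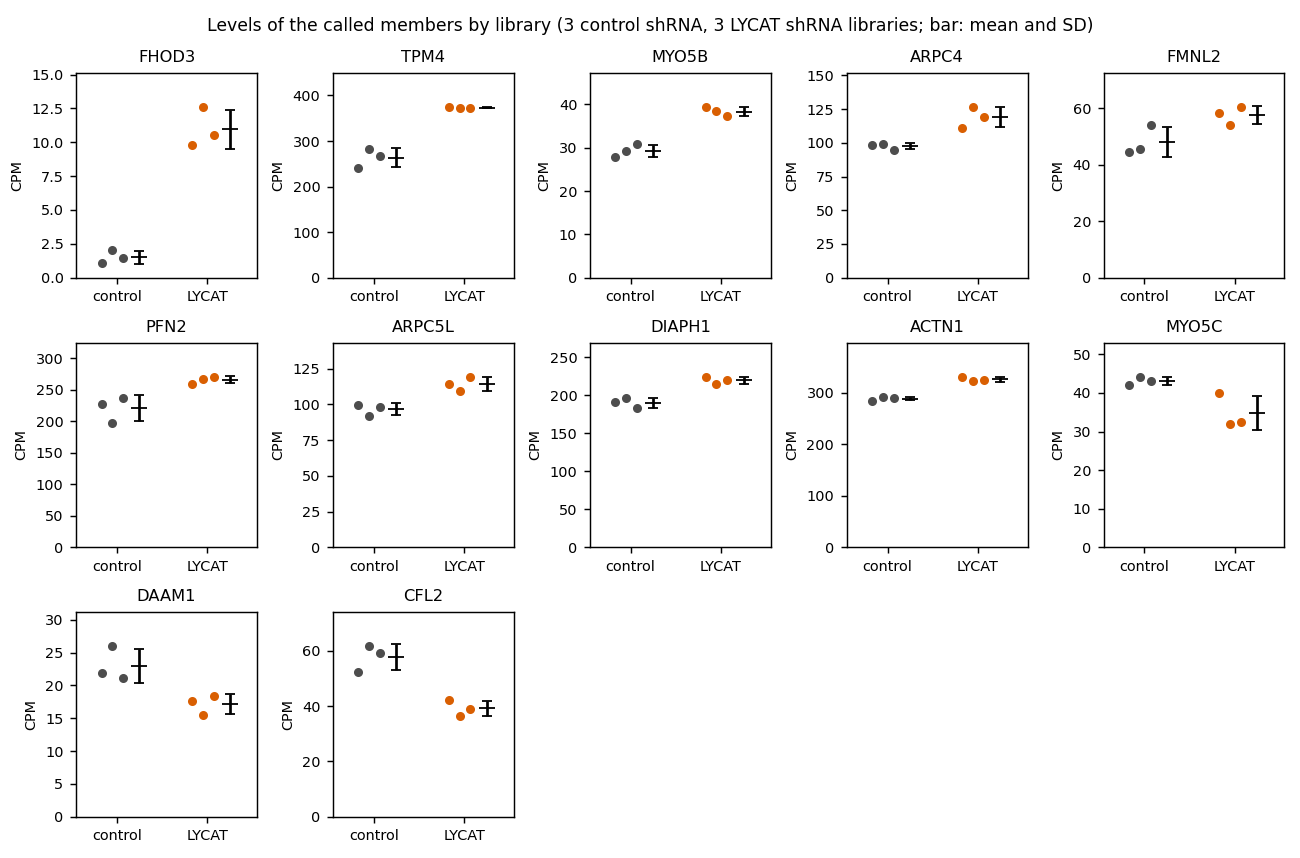
Levels in CPM (linear y axis from 0) of 12 of the 13 called members in each of the 3 control shRNA libraries (grey) and 3 LYCAT shRNA libraries (orange), with the mean and SD beside the points. The groups separate in 11 of the 12 panels and touch for FMNL2.

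Unconventional myosins carry cargo and link membranes to actin. Of 25 members 13 were tested, of which 2 rose, MYO5B among them, MYO5C fell and 10 did not pass, with log2 values of the 13 from -0.34 to 0.39 and a median of 0.13. The class V motors carry vesicles. MYO5B, the motor of recycling endosomes, stood at 27.9, 29.2 and 30.8 CPM in controls and 39.3, 38.4 and 37.4 CPM with LYCAT shRNA. These groups are well apart (1.31-fold, log2 0.39, SE 0.11), although MYO5B was not called without LYCAT shRNA library 1 (log2 0.37). MYO5C, which moves secretory granules, stood at 42.0, 44.2 and 43.1 CPM in controls and 40.0, 31.9 and 32.5 CPM with LYCAT shRNA. LYCAT shRNA library 1 lies close to the controls and the other two lie lower (1.23-fold lower, log2 -0.30, SE 0.11). The call of MYO5C held without LYCAT shRNA library 1 and was lost without control library 1 (log2 -0.31), 2 (-0.28) or 3 (-0.29) or LYCAT shRNA library 2 (-0.24) or 3 (-0.24). Over all 15 alternative settings, other methods among them, the MYO5C call was lost in 11. MYO5A, the third class V motor, ranged from 24.4 to 35.9 CPM in controls and from 24.3 to 38.7 CPM with LYCAT shRNA, a spread within each group larger than the difference between them.

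Class I myosins tether membranes to actin. MYO1C and MYO1E had log2 values of 0.17 (SE 0.08) and 0.15 (SE 0.1), and MYO1D of -0.28 (SE 0.15), none of them called. The filopodial motor MYO10 stood at 89.2 to 104 CPM in controls and 102 to 113 CPM with LYCAT shRNA. MYO6, which walks towards the pointed end, stood at 87.7 to 91.9 CPM in controls and 77.7 to 81.3 CPM with LYCAT shRNA, groups that do not overlap but with a difference (log2 -0.16, SE 0.08) that did not pass. The mitochondrial motor MYO19 and the class IX motors MYO9A and MYO9B were not called (log2 -0.09, 0.16 and -0.34), nor was MYO18A, at 1.87 to 5.16 CPM.

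Of the 12 motors that were not tested, MYO7A, a motor of stereocilia, was counted 3, 5 and 8 times in controls and 3 times in each LYCAT shRNA library, and MYO1F, a motor of immune cells, 4 times in control library 2 and 3 times in LYCAT shRNA library 3. MYO3A, MYO3B, MYO15A, MYO15B, MYO16 and MYO1H had 1 or 2 counts in all. MYO1A, MYO1G, MYO7B and MYO18B had none, where 3 counts correspond to 0.608 to 0.968 CPM depending on the library.

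Myosin light chains bind the neck of the heavy chains and regulate them. Of 12 members 5 were tested and none was called, with a median of -0.06 on the log2 scale. MYL6, the essential light chain of nonmuscle myosin, stood at 661, 703 and 713 CPM in controls and 668, 686 and 699 CPM with LYCAT shRNA (log2 -0.02, SE 0.05). The regulatory light chains MYL12A and MYL12B are near-identical in sequence, so reads can be split between them and their single values are uncertain. Together they came to 444 ± 25.6 CPM in controls and 431 ± 10.2 CPM with LYCAT shRNA, with MYL12A at 36.6 ± 1.65% and 37.1 ± 0.56% of the pair (SD, n = 3 each). MYL6B had a log2 value of -0.08 (SE 0.13), and MYL5 of -0.38 (SE 0.41) from 7 to 15 counts a library. The smooth muscle light chain MYL9 was counted 8, 4 and 3 times in controls and 3, 6 and 2 times with LYCAT shRNA. Of the chains of striated muscle, MYL1, MYL2 and MYL3 had no count, and MYL4 and MYL7 had 4 and 1 over the 6 libraries. MYL10 had 1 count.

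Of the 7 tested Arp2/3 subunits ARPC4 and ARPC5L rose, the other 5 tested subunits did not pass, and values ran from -0.17 to 0.28 on the log2 scale. ARPC4, a core subunit, stood at 98.4, 99.5 and 94.8 CPM in controls and 111, 126 and 119 CPM with LYCAT shRNA, groups that do not overlap (1.21-fold, log2 0.28, SE 0.07). The read-through locus ARPC4-TTLL3, which shares exons with ARPC4, had no count, so how reads in the shared exons were assigned is uncertain. ARPC5L, an alternative to ARPC5 in the complex, stood at 99.9, 92.0 and 98.0 CPM in controls and 114, 110 and 119 CPM with LYCAT shRNA (1.19-fold, log2 0.25, SE 0.07). ARPC5L was not called without LYCAT shRNA library 3 (log2 0.22). ARPC5 itself had a log2 value of 0.04 (SE 0.05), and the ARPC5L share of the pair was 23.2 ± 0.737% in controls and 25.9 ± 0.488% with LYCAT shRNA.

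The other pair of alternative subunits had values of opposite sign, neither of them called with all libraries. ARPC1A stood at 144, 126 and 138 CPM in controls and 128, 108 and 123.1 CPM with LYCAT shRNA, and ARPC1B at 252, 250 and 226 CPM and 263, 257 and 268 CPM. The share of ARPC1A in the pair was 33.5 to 37.9% in controls and 29.6 to 32.7% with LYCAT shRNA, while the summed level was 378 ± 16.2 and 382 ± 14.97 CPM. ARPC2 lay just outside the threshold with groups that do not overlap, at 673 to 693 CPM and 717 to 769 CPM (log2 0.12, SE 0.05), and ARPC3 had a log2 value of -0.08. Without control library 2 ARPC1A was called lower (log2 -0.22) and ARPC2 higher (0.12), and without control libraries 1 and 2 together ARPC1B was called higher (0.22). The subunits together took 23.2 ± 0.235% of the counts of all 76 members in controls and 23.8 ± 0.114% with LYCAT shRNA.

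Capping protein is a dimer of an alpha subunit, CAPZA1 or CAPZA2, and the beta subunit CAPZB. None of the 3 was called with all libraries, and log2 values were -0.07, -0.08 and -0.14. CAPZA1, the most abundant, stood at 374 to 414 CPM in controls and 369 to 398 CPM with LYCAT shRNA. CAPZB ranged from 137 to 175 CPM in controls and from 138 to 144 CPM with LYCAT shRNA, so the spread lay mostly among the controls. Its value rests on control libraries: CAPZB was called lower without control library 2 (log2 -0.24) and without control libraries 1 and 2 together (-0.30), and stood at -0.06, not called, without control library 3. The testis subunit CAPZA3 had no count.

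Cofilins sever filaments. CFL2, the form known best from muscle, stood at 52.5, 61.6 and 59.3 CPM in controls and 42.1, 36.4 and 39.0 CPM with LYCAT shRNA. All LYCAT shRNA libraries lie below all controls, with means of 57.8 ± 4.74 CPM in controls and 39.2 ± 2.84 CPM with LYCAT shRNA (SD, n = 3 each). CFL2 was 1.47-fold lower (log2 -0.55, SE 0.1). CFL1, the form most cells rely on, stood at 873, 859 and 852 CPM and 827, 791 and 817 CPM, groups that do not overlap but a difference that did not pass (log2 -0.09, SE 0.04). With DSTN, the related disassembly factor destrin (log2 -0.03), the 3 summed to 1149 ± 13.3 CPM in controls and 1076 ± 18.05 CPM with LYCAT shRNA, of which CFL2 made up 5.04 ± 0.439% and 3.64 ± 0.221%.

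Of the profilins PFN2 rose, and PFN1 was not called with all libraries. PFN2 stood at 228, 198 and 237 CPM in controls and 260, 267 and 271 CPM with LYCAT shRNA, groups that do not overlap (1.21-fold, log2 0.27, SE 0.06). PFN2 stayed called with any 1 library left out, and was not called without control libraries 1 and 2 together (log2 0.17). PFN1, the main profilin, stood at 626, 543 and 583 CPM and 520, 564 and 544 CPM, with overlapping groups and no call (log2 -0.11, SE 0.05). PFN1 was called lower without control library 2 (log2 -0.16). The pair summed to 805 ± 58.2 CPM in controls and 809 ± 26.2 CPM with LYCAT shRNA, while the PFN2 share was 26.7, 26.7 and 28.9% in controls and 33.3, 32.1 and 33.2% with LYCAT shRNA. PFN3 had no count and PFN4, with 21 counts in all, was not tested.

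**Figure D3:**
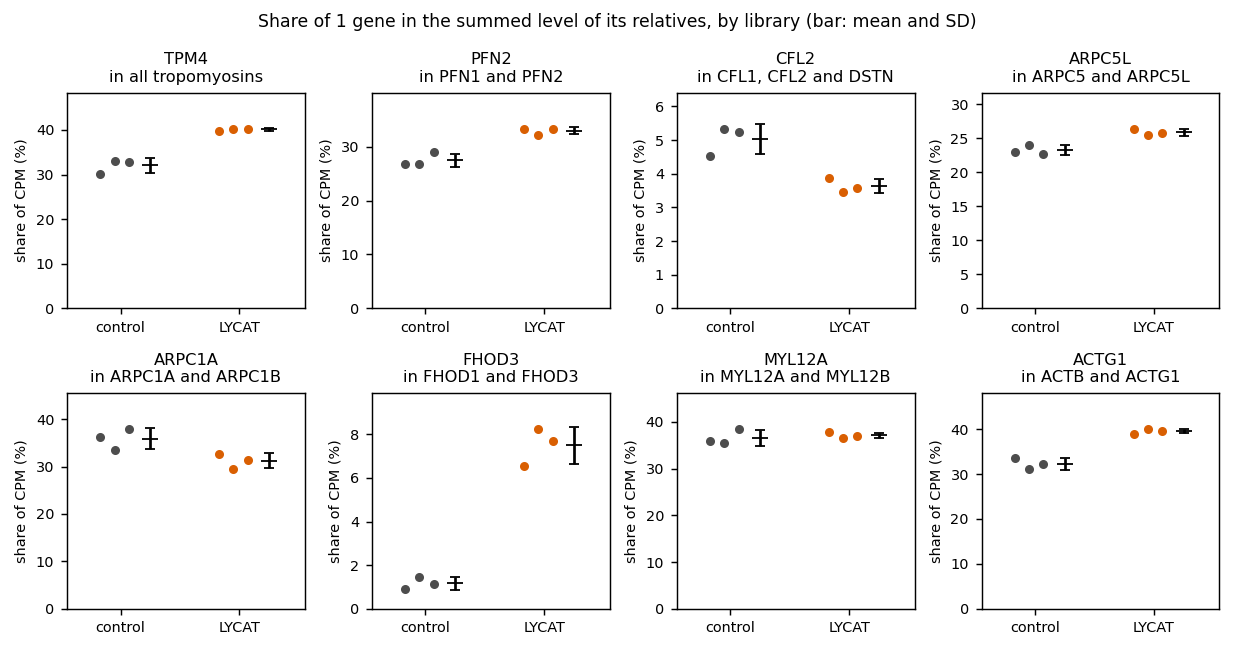
Share (percent of summed CPM, y axis from 0, not corrected for length) of 1 gene in the counts of its relatives in each of the 3 control shRNA libraries (grey) and 3 LYCAT shRNA libraries (orange), with mean and SD. TPM4, PFN2, ARPC5L, FHOD3 and ACTG1 take a larger share in every LYCAT shRNA library and CFL2 and ARPC1A a smaller one, while MYL12A overlaps.

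Tropomyosins differed by gene. TPM4, a tropomyosin of nonmuscle cells, stood at 241, 282 and 268 CPM in controls and 374, 373 and 373 CPM with LYCAT shRNA. The LYCAT shRNA libraries lie close together and above every control, and the mean rose from 263 ± 20.8 to 373 ± 0.68 CPM (SD, n = 3 each; 1.42-fold, log2 0.50, SE 0.05; 0.44 to 0.56 with any 1 library left out). TPM3 had nearly equal levels, at 491 to 504 CPM and 493 to 516 CPM (log2 0.02, SE 0.05). The sum of the 4 genes was 821 ± 28.7 CPM in controls and 931 ± 8.44 CPM with LYCAT shRNA, and TPM4 made up 32.0 ± 1.598% and 40.1 ± 0.289% of it.

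TPM1 and TPM2, which fibroblasts and muscle also express, were lowest among the controls in library 3, as were COL1A1, COL1A2 and COL3A1. For TPM2 that order rests on 8 to 13 counts a library. TPM1 stood at 63.2, 64.7 and 48.8 CPM in control libraries 1, 2 and 3 and 49.97, 58.4 and 55.3 CPM with LYCAT shRNA (log2 -0.13, SE 0.1, not called). Without control libraries 1 and 2, the value for TPM1 was 0.15. TPM2 had 10, 13 and 8 counts in controls and 4, 4 and none in LYCAT shRNA libraries 1, 2 and 3, too few to test. The part of the fibroblast markers in these values was not tested.

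Alpha-actinins tie filaments into bundles. ACTN1 stood at 285, 291 and 291 CPM in controls and 331, 323 and 325 CPM with LYCAT shRNA, groups that do not overlap with SDs of 3.64 and 4.23 CPM (1.13-fold, log2 0.18, SE 0.05). It was not called without LYCAT shRNA library 1 (log2 0.17). ACTN4, its nonmuscle relative, stood at 288 to 320 CPM and 293 to 300 CPM (log2 -0.04, SE 0.05). The striated muscle forms ACTN2 and ACTN3 had 2 counts and none.

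Promoter windows, from 250 bases before to 50 after a start, were found in RefSeq for 65 of the 76 members, with 95 windows in all (11 members, ARPC1B and PFN2 among them, had no entry). A CArG box lay in 5 of the 95 windows (5.26%) and in 1.29% of all 35116 windows of the same length. The 5 members were TPM4, ACTN1, MYO1E and, not tested, MYL7 and MYO1A. GGAATG, read on both strands, lay in 9 of the 95 (9.47%) and in 14.0% of all windows, with ACTN1, DIAPH3, INF2, MYL12A and PFN1 as the tested members that hold it. The site in ACTN1 does not overlap its CArG box. A match describes these letters and not a bound site.

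The stretches with a CArG box before the starts of the 3 tested members are printed with that of ACTG1, an actin gene described below that was picked for display after its value was seen, because serum response factor is the regulator best known for cytoskeletal genes. Capitals mark the CArG box and, in ACTN1, also the later GGAATG site on the opposite strand. All are RefSeq sequence, GRCh38.p14, 5′ to 3′ on the strand of the gene. TPM4 lies at chr19:16067288-16067487 on the + strand, ACTN1 at chr14:68977617-68977816 on the - strand, MYO1E at chr15:59372872-59373001 on the - strand and ACTG1 at chr17:81512800-81512949 on the - strand.
TPM4: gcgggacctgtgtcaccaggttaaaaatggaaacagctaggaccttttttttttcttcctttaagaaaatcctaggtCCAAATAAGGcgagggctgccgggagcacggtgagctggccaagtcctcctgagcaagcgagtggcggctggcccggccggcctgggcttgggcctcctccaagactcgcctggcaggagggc
ACTN1: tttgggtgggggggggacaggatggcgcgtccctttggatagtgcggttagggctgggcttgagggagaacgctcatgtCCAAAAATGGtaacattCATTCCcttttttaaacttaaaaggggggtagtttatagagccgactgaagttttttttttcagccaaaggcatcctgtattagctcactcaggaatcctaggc
MYO1E: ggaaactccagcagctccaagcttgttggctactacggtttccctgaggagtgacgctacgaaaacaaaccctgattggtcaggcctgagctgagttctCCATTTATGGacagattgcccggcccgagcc
ACTG1: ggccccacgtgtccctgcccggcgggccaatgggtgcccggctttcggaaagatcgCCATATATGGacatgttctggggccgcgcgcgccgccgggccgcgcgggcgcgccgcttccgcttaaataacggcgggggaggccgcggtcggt

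Counted from the base before the start as -1, the box begins at -173 in TPM4, at -171 in ACTN1, at -31 in MYO1E and at -94 in ACTG1. In TPM4 it belongs to 1 of 3 annotated starts and in ACTN1 to 1 of 4. Of the 3 tested members with a box TPM4 and ACTN1 were called (log2 0.50 and 0.18) and MYO1E was not (0.15). Of the 8 tested pathway genes with a box, ACTG1 and SRF were called, and 6 were not, with log2 values from -1.15 (ACTC1) to 0.21 (SVIL). The ACTC1 value is imprecise (SE 0.89). Its counts were 70, 91 and 10 in control libraries 1, 2 and 3 and 38, 4 and 26 with LYCAT shRNA.

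Before any difference between the groups, the control libraries order the families by level per length (CPM per kb of the gene's median annotated transcript in GENCODE 29, mean ± SD, n = 3). MYL6 stood at 1043 ± 41.5, CFL1 at 1008 ± 12.9 and ARPC2 at 1007 ± 14.3, 3 levels that do not differ beyond their spread. CAPZA1 (532 ± 29.97), ARPC3 (527 ± 11.02) and PFN1 (498 ± 35.4) followed, likewise not apart, and then TPM3 (446 ± 6.003). ACTN1 and ACTN4 were equal at 349 ± 4.40 and 349 ± 18.4. The order depends on the length used. By the longest transcript CFL1 stood at 459 ± 5.85, PFN1 at 452 ± 32.2 and MYL6 at 443 ± 17.6, not apart, and ARPC2 lower at 307 ± 4.36. In 8 of the 9 families the leading member was the same with the longest transcript. In formins FHOD1 led by the median (169 ± 12.03 against 97.8 ± 3.54 for DIAPH1) and DIAPH1 by the longest transcript (32.5 ± 1.18 against 29.5 ± 2.10). FHOD3 stood at 0.37 ± 0.116 in controls, the lowest of the 48 by the median length and by the longest transcript not apart from DAAM2 and MYO18A (0.307 ± 0.0965, 0.277 ± 0.0896 and 0.29 ± 0.0763). This rank depends on the filter, which FHOD3 passed through its LYCAT shRNA counts. Members too low to test are outside the ranking. Of these TPM2 stood higher in controls (1.96 ± 0.3 by the median length). PFN4 (1.75 ± 1.43), MYL9 (0.57 ± 0.28), FMNL3 (0.48 ± 0.15) and MYO1F (0.42 ± 0.73) also had higher means, though not beyond their spread. The others stood lower.

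**Figure D4:**
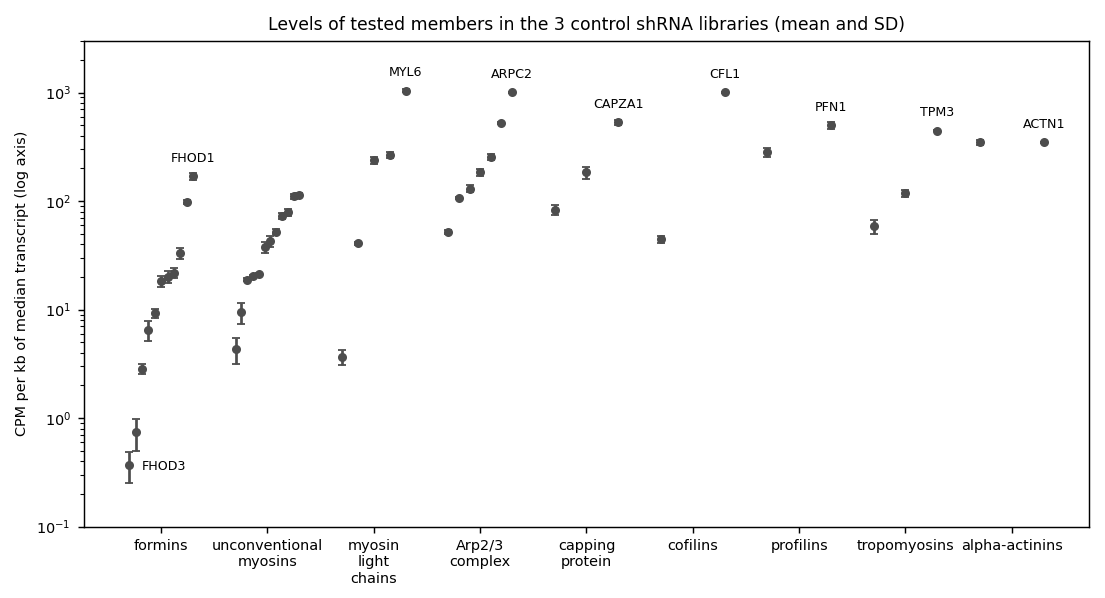
Level in the 3 control shRNA libraries of 47 of the 48 tested members (CPM per kb of the median annotated transcript, log y axis, mean and SD) by family on the x axis, with FHOD3 and the leading member named, except for the unconventional myosins. Levels run from 0.37 for FHOD3 to 1043 for MYL6.

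Other genes of the actin pathway, taken from 7 lists of textbook members, give the surroundings of these families. Of 149 genes in the deposited data, 107 were tested, 20 rose, 13 fell and 74 did not pass, or 30.8% called, where 19.1% of all tested genes were called. The lists too were chosen with earlier results of these data known. Nothing is therefore read from that share, and the p-values of these genes are descriptive. Of these lists 6 are described. The median over all 7 was 0.005 on the log2 scale. The p-values below are edgeR quasi-likelihood values adjusted over all tested genes, and genes named also passed with any 1 library left out unless stated. Without control libraries 1 and 2 together, 15 rose and 10 fell.

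Both cytoplasmic actins rose, in a list of 6 of which 4 were tested and 2 called. ACTG1, gamma actin, stood at 706, 660 and 629 CPM in controls and 1066, 1064 and 1072 CPM with LYCAT shRNA, far apart (1.604-fold, log2 0.68, SE 0.04, edgeR adjusted p = 6.4e-22). ACTB, beta actin, stood at 1390, 1468 and 1328 CPM and 1666, 1593 and 1627 CPM (1.17-fold, log2 0.22, SE 0.04, edgeR adjusted p = 3.35e-05). Their sum was 2061 ± 90.8 CPM in controls and 2696 ± 37.3 CPM with LYCAT shRNA, and the ACTG1 share was 32.3 ± 1.33% and 39.6 ± 0.527%. The actins are similar in coding sequence and have many pseudogene copies, so their single values are uncertain.

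Of the conventional heavy chains 3 of 14 were tested, and the 3 nonmuscle genes differed. MYH9, the heavy chain of nonmuscle myosin IIA, rose from 261 ± 3.07 to 311 ± 11.7 CPM (SD, n = 3 each; log2 0.26, edgeR adjusted p = 0.00017). MYH14, the heavy chain of myosin IIC, fell from 15.8 ± 2.00 to 5.43 ± 1.39 CPM (2.83-fold lower, log2 -1.50, SE 0.22, edgeR adjusted p = 5.74e-08), and MYH10 was not called (log2 -0.04).

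Of 22 tested nucleation factors and Arp2/3 activators 3 rose and 2 fell. CYFIP2, a subunit of the WAVE complex, rose from 19.8 ± 2.30 to 33.9 ± 3.90 CPM (1.72-fold, edgeR adjusted p = 3e-06), and JMY, a nucleator that also binds p53 cofactors, fell from 21.8 ± 0.336 to 14.4 ± 2.39 CPM (edgeR adjusted p = 0.00218). COBL, BRK1 and ABI1 were also called (log2 0.86, 0.22 and -0.29), COBL not without LYCAT shRNA library 1 (log2 0.68) or 2 (0.75), BRK1 not without control library 3 (0.18) or LYCAT shRNA library 2 (0.21), and ABI1 (log2 -0.27 to -0.31) not without any of the libraries other than control library 3. Of 22 tested severing, monomer-binding and end-binding genes 4 rose and 4 fell. CORO1C, a coronin, rose from 102 ± 6.90 to 136 ± 14.8 CPM (edgeR adjusted p = 1.27e-05), and the monomer-binding thymosin TMSB4X fell from 159 ± 26.7 to 112 ± 0.834 CPM (1.42-fold lower, edgeR adjusted p = 5.04e-05). EPS8, which caps and bundles filaments, fell by 0.62 on the log2 scale and was not called without LYCAT shRNA library 3 (log2 -0.48).

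Of 24 tested crosslinking, side-binding and adhesion-linked genes 6 rose and 3 fell. The 3 that rose with the smallest p were CNN3, a calponin, from 13.1 ± 3.48 to 22.8 ± 2.75 CPM (edgeR adjusted p = 0.000189), vinculin (VCL) from 109 ± 1.63 to 134 ± 5.08 CPM (edgeR adjusted p = 0.000711) and the bundling protein LCP1 from 4.54 ± 1.02 to 9.77 ± 1.51 CPM (edgeR adjusted p = 0.000756). TAGLN2 fell from 577 ± 39.1 to 469 ± 25.9 CPM (edgeR adjusted p = 2.31e-06), LASP1 by 0.33 on the log2 scale, and TAGLN, a marker of smooth muscle and fibroblasts, from 14.96 ± 2.96 to 6.32 ± 1.58 CPM (2.31-fold lower, edgeR adjusted p = 7.35e-06). TAGLN stood at 16.3, 17.0 and 11.6 CPM in control libraries 1, 2 and 3, in which the fibroblast markers were highest in libraries 1 and 2, and without those 2 libraries TAGLN was not called (log2 -0.83). The part of the fibroblast markers in it was not tested. SRF itself rose from 70.1 ± 7.60 to 84.9 ± 4.63 CPM (log2 0.28, edgeR adjusted p = 0.0124) and was not called without control library 2 (log2 0.19) or LYCAT shRNA library 3 (0.24). Its coactivators MKL1 and MKL2 were not called (log2 -0.79 and -0.02). For MKL1 the groups did not overlap, but the value rests on 8 to 24 counts a library (SE 0.34).

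**Figure D5:**
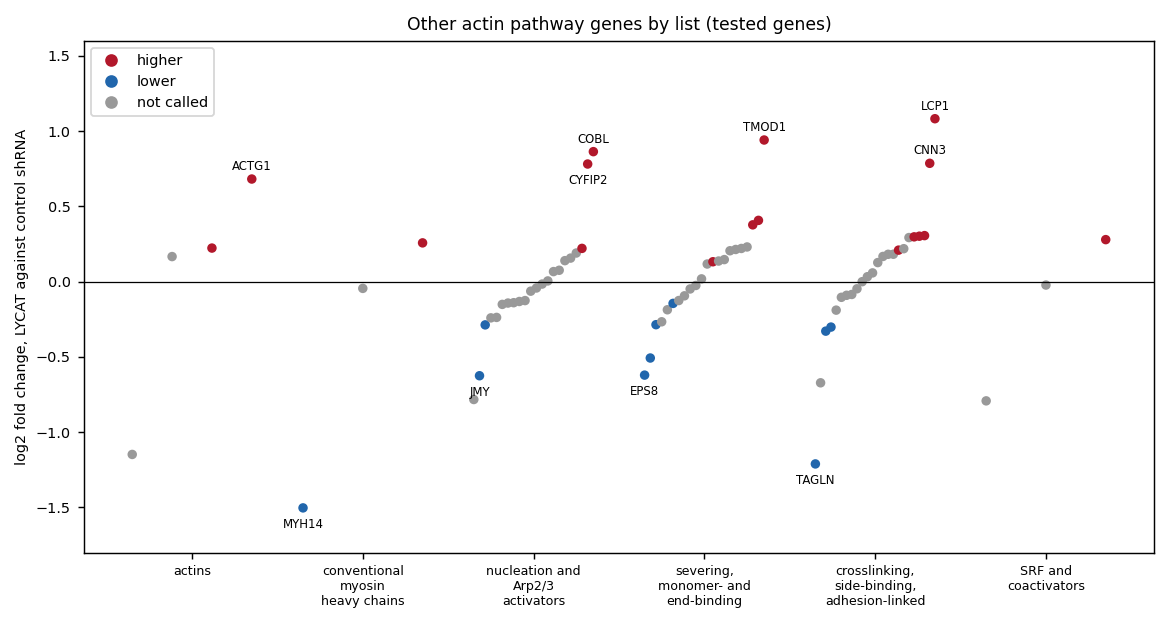
Log2 fold change (LYCAT shRNA against control shRNA, y axis) of the 78 tested genes of the 6 other actin pathway lists described (x axis), with called genes in red (higher) and blue (lower) and called genes past 0.6 in size named. Values run from -1.50 for MYH14 to 1.08 for LCP1.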

How the data were processed

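RNA was sequenced from 6 libraries of H2122 cells, 3 with control shRNA and 3 with LYCAT shRNA. The authors deposited 1 table of raw counts per gene symbol. The submitters' processing notes list BWA 0.7.15, Bowtie2, featureCounts 1.5.1 and bcl2fastq 2.17, and the builds hg19 and mm10, with no role for any. Aligner, build and strand of this table are thus not known here, so overlapping genes and near-identical copies are uncertain. The treated columns are headed cycat and were read as LYCAT.

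The filter filterByExpr, by group, left 11097 of 23368 genes with 99.77% of the counts. edgeR 4.0.16 (R 4.3.3) was fitted to the raw counts with TMM scaling, a quasi-likelihood F test (robust=TRUE), group as the only term and Benjamini-Hochberg adjustment over all tested genes. The SE is the log2 fold change divided by the square root of F. CPM uses the scaled library sizes. The LCLAT1 permutation test used log2(CPM + 1). The fit was tested on simulated counts. Symbols, promoters and transcript lengths came from RefSeq (GRCh38.p14) and GENCODE 29, a build the notes do not name, and are reference sequence only. Protein sequences were not used here.

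The members, gene lists and tests were chosen with earlier results of these data known. The text names every called member, close paralogs, every other member as tested or too low, and, per pathway list, the gene of smallest p in each direction plus at most 3; LASP1 was added after its values were seen. Counts cover all members and lists, although 1 called member and 1 list are not reported here. Alternatives were DESeq2 1.42.0, limma-voom (limma 3.58.1), other scalings and filters, robust=FALSE, a replicate block and leaving out libraries. Libraries with the same number were not shown to be paired. A floor of 3 counts equals 0.608 to 0.968 CPM, and covers counting error only.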

Additional observations from a re-analysis of the deposited data

How the results depend on the processing

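Over all tested genes 2117 were called, and 1193 with DESeq2, 1129 without control libraries 1 and 2, and 1448 to 2228 with any 1 library left out. Of the members 10 rose and 3 fell; 5 rose without control libraries 1 and 2, 5 to 10 rose and 1 to 4 fell with any 1 library left out, and 1 fell with DESeq2 and 1 with limma-voom. Of the 13 called members 8 remained with DESeq2, 11 with limma-voom, and 5 without control libraries 1 and 2. Of the other pathway genes 20 rose and 13 fell, with 15 to 23 and 9 to 14 over the alternatives. Scaling moved the median of all genes to no further than -0.02. With a replicate block 10 members rose and 2 fell, and 2046 genes were called; libraries with the same number deviated with correlations of 0.00509, -0.0645 and -0.0477, which gives no sign of pairing, and not every library correlated best with its own number.

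Signs turned for 10 members near 0 that were not called (log2 values). With any 1 library left out TPM3 ran from -0.00181 to 0.0326, ARPC5 from -0.0312 to 0.0729, MYL6B from -0.135 to 0.00364, MYL6 from -0.0478 to 0.00881, INF2 from -0.0765 to 0.0833, MYO18A from -0.358 to 0.349, FMNL1 from -0.0388 to 0.254 and MYL12A from -0.0795 to 0.0163. Without control libraries 1 and 2 ARPC5 was at -0.0294, INF2 at 0.134, TPM1 at 0.153, MYO18A at -0.196, FMNL1 at -0.184 and CAPZA2 at 0.118, and with limma-voom MYO18A was at -0.0018. The cause was not tested. The 4 tested members under 5 CPM in controls, FHOD3 among them, are limited by counts of 5 to 15 in control libraries.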
